A study of Mus musculus with 29 samples.

Results

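The 7 genes described here encode enzymes and receptors through which tissues limit T cells by metabolism: Ido1 and Il4i1 in tryptophan breakdown, Nos2 in arginine use, Entpd1 and Nt5e in the making of adenosine, and Adora2a and Adora2b as adenosine receptors. They were chosen by symbol, and each was found once among the 24421 genes of the count table, so that 7 of 24421 genes are covered. Their RNA was followed in 29 libraries, each from another mouse, of the YTN16 model of peritoneal dissemination of gastric cancer (GC). The mice of this model keep an intact immune system, and the cancer cells they receive come from the GC line YTN16.

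All mice were female C57BL/6J mice aged 5 to 6 weeks when the experiment began, and all received YTN16 cells into the peritoneal cavity (IP) on day 0. At 3wk (day 21) there were libraries of 5 untreated mice and of 5 dual ICI mice. The latter received anti-PD1 at 10 mg/kg together with anti-CTLA4 at 5 mg/kg on days 5, 8 and 12. In the sample descriptions the numbers of these dual ICI libraries have gaps, and whether further mice were in that group is not given. At 5wk (day 35) there were 5 untreated, 5 anti-PD1, 4 anti-CTLA4 and 5 dual ICI mice, with further injections on days 21 and 28. Untreated mice received PBS. The labels name the tissue of each library as tumor, while the study's methods describe peritoneum stripped with or without nodules, so a library holds cancer cells, peritoneum and abdominal muscle in shares that were not measured. The labels do not give the outcome of the dual ICI mice at 5wk. Mice 1 and 5 were taken as uncured and mice 2, 3 and 4 as cured from the study's text, with the number in a label read as the mouse number, and the results for all 5 dual ICI mice are given as well. The 3wk and 5wk libraries came from separate experiments, so time and experiment cannot be told apart.

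Ido1 encodes the enzyme that opens the indole ring of tryptophan and starts the kynurenine pathway. Interferon gamma is its best known inducer, and both tryptophan loss and kynurenine restrain T cells. Il4i1 encodes an oxidase secreted by myeloid cells that also acts on tryptophan and other aromatic amino acids. Nos2 encodes the inducible nitric oxide synthase, which makes nitric oxide from arginine and is typical of activated macrophages and myeloid suppressor cells. Entpd1 (CD39) and Nt5e (CD73) sit on the cell surface and cut extracellular ATP stepwise to adenosine, which signals to lymphocytes mainly through Adora2a, while Adora2b responds to higher adenosine and is also found on myeloid, stromal and epithelial cells.

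The total count per library was between 25989217 and 31219650, which left Ido1 and Il4i1 with few counts in some groups. The 2 receptors held 48 to 387 counts per library. Levels below are CPM, which are counts set relative to the size of each library after TMM scaling over the 29 libraries. A gene is called where edgeR's quasi-likelihood test gave an adjusted p under 0.05, with the adjustment (Benjamini-Hochberg) made over every gene that entered the fit. One library stood apart from its group. In anti-PD1 mouse 5, 12 gastric epithelium genes summed to 32.9 CPM, against 2076.5 to 2731.3 in the other 4 anti-PD1 libraries, and 12 skeletal muscle genes took 15.6% of its counts, against 3.79% to 8.29%. The cured libraries had gastric epithelium sums of 45.5, 18.0 and 9.06 CPM and muscle shares of 17.5%, 15.8% and 15.7%. Per the study's text 1 anti-PD1 mouse was cured, without its number. For the anti-PD1 group, the mean of Nt5e and the largest log2 fold change are therefore given with and without mouse 5.

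The tissue label was checked against these markers. Krt8, the most abundant of the gastric epithelium genes, had a mean of 895 ± 347 CPM (SD, n = 5) in untreated mice at 5wk and of 9.26 ± 9.74 CPM (SD, n = 3) in cured mice. In the cured libraries Gkn1, Gkn2, Muc5ac, Tff1 and Tff2 held 3 counts or fewer each. Muc5ac did so too in all untreated and dual ICI libraries at 3wk and all anti-PD1 and uncured libraries. Gkn1 did so in all dual ICI libraries at 3wk. By Krt8, Gkn2, Tff1 and Tff2, the label of tumor tissue is not borne out in the cured libraries. Because the tissue is bulk, fewer cells of a type and less RNA per cell cannot be told apart in any value that follows.

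By the GENCODE vM21 annotation of GRCm38, Ido1 lies at chr8:24584136-24597009 (minus strand), Nos2 at chr11:78920787-78960254 (plus), Entpd1 at chr19:40612366-40741602 (plus), Nt5e at chr9:88327197-88372092 (plus), Adora2a at chr10:75316877-75334784 (plus) and Adora2b at chr11:62248984-62266453 (plus). None of these 6 genes shares exonic bases with another annotated gene. Il4i1 lies at chr7:44816387-44840809 (plus), and 3423 of its 4080 exonic bases (83.9%) are also exonic in Tbc1d17 on the other strand. Whether the counting used strand is not given in the sources used here, so reads of Il4i1 and Tbc1d17 cannot be told apart in that stretch, and the values of Il4i1 are uncertain.

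Divided by exonic length, the genes differed widely in level. The median over the 29 libraries was 8.17 CPM per kb for Entpd1, 5.74 for Nos2, 2.27 for Nt5e, 2.04 for Adora2b, 1.89 for Adora2a, 1.34 for Ido1 and 0.0869 for Il4i1. As a ratio of the highest to the lowest library, Ido1 had the widest span, from 0.0796 to 28.2 CPM per kb, and Entpd1 the narrowest, from 5.25 to 12.6 CPM per kb. The plot of the levels by library gives every value on the CPM scale.

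**Figure D1:**
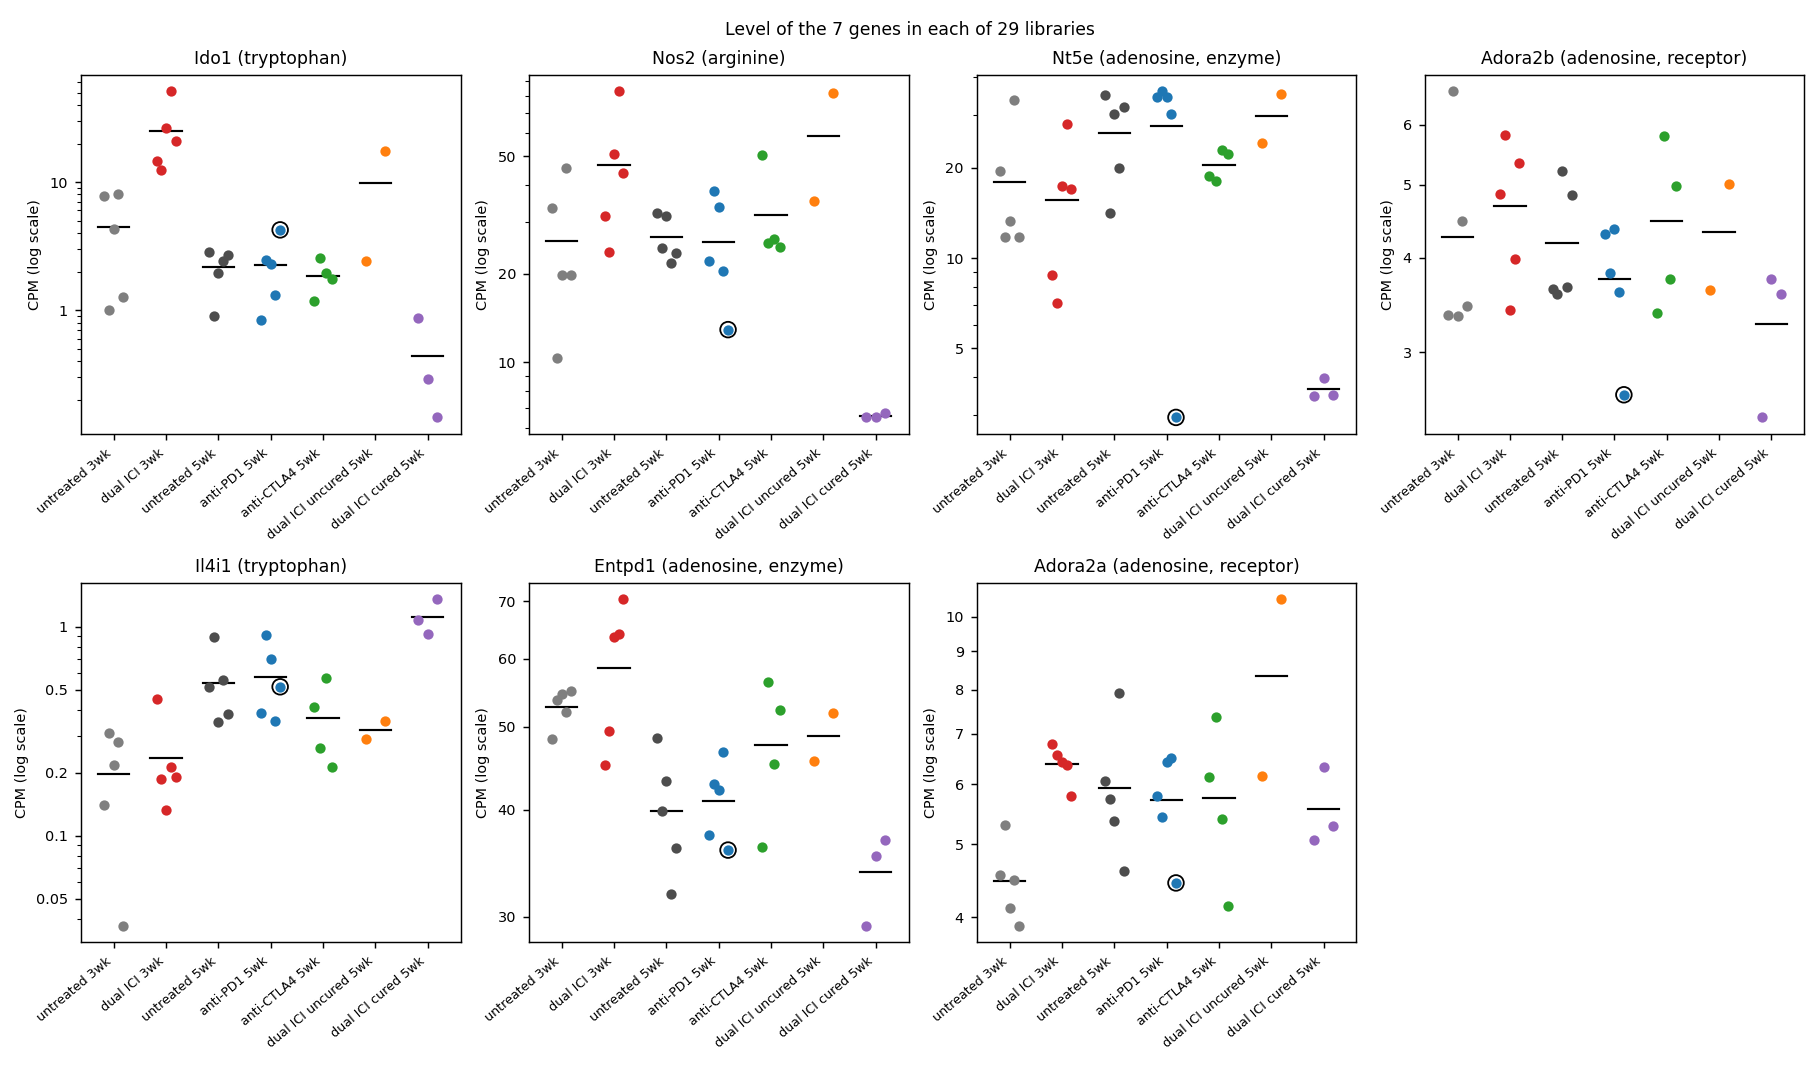
CPM (log scale) of each of the 7 genes in the 29 libraries, by group. Each point is 1 mouse, each line a group mean, and the ringed point is anti-PD1 mouse 5. Ido1 was highest in dual ICI mice at 3wk, and Nos2 and Nt5e were lowest in cured mice and, for Nt5e, in the ringed mouse.

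Ido1, the tryptophan enzyme, had the largest difference between dual ICI and untreated mice at 3wk among the 6 genes tested there in edgeR. Its level was 14.5, 12.4, 26.5, 51.6 and 21.1 CPM in the 5 dual ICI mice and 7.74, 1.01, 4.33, 8.02 and 1.26 CPM in the 5 untreated mice. Every dual ICI mouse lay above every untreated mouse, with means of 25.2 ± 15.7 and 4.47 ± 3.38 CPM (SD, n = 5 each). The log2 fold change was 2.51 ± 0.60 (SE), with an unadjusted p of 0.00133 and an adjusted p of 0.0998 in edgeR, which missed the threshold, while DESeq2 gave an adjusted p of 0.000758.

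At 5wk the Ido1 level was low in most mice. It was 2.86, 0.894, 1.96, 2.43 and 2.701 CPM in untreated mice, 0.836, 2.47, 2.31, 1.32 and 4.23 CPM in anti-PD1 mice, and 1.19, 2.54, 1.96 and 1.76 CPM in anti-CTLA4 mice. These 3 groups overlapped. The 2 uncured mice were unlike each other: mouse 1, at 2.44 CPM, lay within the range of untreated mice, and mouse 5, at 17.4 CPM, lay above all other mice at 5wk. The cured mice had 0.870, 0.292 and 0.145 CPM, from 17, 6 and 3 counts, and all lay below the untreated mice.

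Against untreated mice at 5wk, Ido1 was lower in cured mice by a log2 fold change of -2.30 ± 0.58 (SE; adjusted p = 0.0112 in edgeR), which was -3.25 without cured mouse 2 and -2.08 with an adjusted p of 0.0533 without cured mouse 3. In uncured mice its log2 fold change was 2.19 ± 0.62 (SE; adjusted p = 0.734 in edgeR), and without mouse 5 it was 0.14. In the order of group means, Ido1 was highest in dual ICI mice at 3wk, followed by uncured, untreated 3wk, anti-PD1, untreated 5wk, anti-CTLA4 and cured mice. Each group overlapped with the next except anti-CTLA4 and cured mice, whose means of 1.86 and 0.436 CPM differed by more than either SD.

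Il4i1, the amino acid oxidase, was counted 1 to 30 times per library. The cured mice had 1.08, 0.926 and 1.36 CPM and the untreated mice at 5wk had 0.515, 0.894, 0.352, 0.557 and 0.382 CPM. The groups did not overlap, with means of 1.12 ± 0.22 (SD, n = 3) and 0.540 ± 0.216 CPM (SD, n = 5), but they overlapped on plain library totals, where cured mouse 3 had 0.676 and untreated mouse 2 had 0.708 CPM. The log2 fold change was 1.08 ± 0.38 (SE; adjusted p = 0.0442 in edgeR), and leaving out any of 7 of the 8 mice took the adjusted p above 0.05, to at most 0.163. Tbc1d17, with which Il4i1 shares most exonic bases, had means of 88.3 ± 8.3 CPM (SD, n = 3) in cured and 69.3 ± 26.8 CPM (SD, n = 5) in untreated mice at 5wk. Its part in the Il4i1 counts was not tested.

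The means of Il4i1 in the other groups lay below that of cured mice. On plain library totals, however, anti-PD1 mouse 2 (1.09 CPM) lay above the cured mice (0.676 to 0.983 CPM). At 3wk Il4i1 was at 0.140, 0.310, 0.218, 0.280 and 0.0371 CPM in untreated mice and at 0.453, 0.186, 0.132, 0.214 and 0.191 CPM in dual ICI mice. Too few counts were present there for edgeR's filter, so the main edgeR fit made no test, and DESeq2 gave an adjusted p of 0.962. Anti-PD1 mice had 0.386, 0.916, 0.698, 0.353 and 0.516 CPM, anti-CTLA4 mice had 0.415, 0.262, 0.568 and 0.213 CPM, and uncured mice had 0.289 and 0.355 CPM. Cured mice, which had the highest group mean of Il4i1, had the lowest of Ido1.

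Nos2, the inducible nitric oxide synthase, was nearly the same in the 3 cured mice, at 6.50, 6.53 and 6.73 CPM. Untreated mice at 5wk had 32.0, 24.4, 31.3, 21.8 and 23.4 CPM, with no overlap. Nos2 fell by 1.99 on the log2 scale in cured mice (SE 0.18; adjusted p = 0.000138 in edgeR), a 3.98-fold difference. In uncured mice it was 35.2 and 82.1 CPM, both above all untreated mice at 5wk, with a log2 fold change of 1.14 ± 0.31 (SE; unadjusted p = 0.00473, adjusted p = 0.734 in edgeR), and without uncured mouse 5 it was 0.38.

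At 3wk, Nos2 was at 31.3, 23.7, 51.0, 83.3 and 43.7 CPM in dual ICI mice and at 33.5, 10.4, 19.8, 45.6 and 19.8 CPM in untreated mice. The groups overlapped, with a log2 fold change of 0.87 ± 0.40 (SE; adjusted p = 0.478 in edgeR). Anti-PD1 mice had 22.1, 38.2, 33.8, 20.4 and 12.9 CPM and anti-CTLA4 mice had 50.7, 25.3, 26.1 and 24.6 CPM. The value of 12.9 CPM belonged to anti-PD1 mouse 5.

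Nt5e (CD73), which makes adenosine from AMP, was lower in every cured mouse. It was at 3.48, 3.99 and 3.49 CPM in cured mice and at 34.9, 14.1, 30.3, 19.9 and 31.8 CPM in untreated mice at 5wk. The groups did not overlap, with means of 3.65 ± 0.29 (SD, n = 3) and 26.2 ± 8.8 CPM (SD, n = 5). Nt5e fell by 2.81 on the log2 scale (SE 0.31; adjusted p = 0.000213 in edgeR), a 7.04-fold difference.

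Anti-PD1 mice 1 to 4 had 34.5, 36.1, 34.5 and 30.1 CPM of Nt5e, while mouse 5 had 2.94 CPM, below the cured mice. The mean of that group was 27.6 ± 14.0 CPM (SD, n = 5) with mouse 5 and 33.8 ± 2.5 CPM (SD, n = 4) without it. Uncured mice had 24.3 and 35.2 CPM, of which the higher lay just above all untreated mice at 5wk. Anti-CTLA4 mice had 18.7, 18.1, 22.9 and 22.2 CPM, within the range of untreated mice. At 3wk Nt5e was at 8.76, 7.08, 17.4, 28.0 and 17.0 CPM in dual ICI mice and at 19.6, 11.7, 13.3, 33.6 and 11.7 CPM in untreated mice, with a log2 fold change of -0.18 ± 0.40 (SE; adjusted p = 0.946 in edgeR) whose sign turned when untreated mouse 4 (0.16) or dual ICI mouse 2 (0.01) was left out.

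Entpd1 (CD39), the enzyme before Nt5e, varied less than Nt5e. Cured mice had 29.3, 35.3 and 36.9 CPM and untreated mice at 5wk had 48.5, 39.8, 43.2, 31.9 and 36.1 CPM. The groups overlapped, with a log2 fold change of -0.22 ± 0.17 (SE; adjusted p = 0.304 in edgeR). On plain library totals they did not overlap, with 20.4 to 26.7 CPM in cured and 30.1 to 58.2 CPM in untreated mice. Uncured mice, at 45.6 and 51.9 CPM, lay above all 3 cured mice, by 0.50 ± 0.13 (SE) on the log2 scale (adjusted p = 0.00791 in edgeR). Without uncured mouse 5 the difference was 0.39 and the adjusted p 0.0701.

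Untreated mice at 3wk had 48.4, 53.7, 54.6, 52.0 and 55.0 CPM of Entpd1 and so lay mostly above untreated mice at 5wk. The log2 fold change from 3wk to 5wk was -0.41 ± 0.12 (SE; adjusted p = 0.0469 in edgeR), and leaving out any of 8 of the 10 mice took the adjusted p above 0.05, to at most 0.112. Dual ICI mice at 3wk had 45.1, 49.5, 63.6, 64.1 and 70.4 CPM, with a log2 fold change of 0.16 ± 0.13 (SE; adjusted p = 0.764 in edgeR) against untreated mice. Anti-PD1 mice had 37.3, 42.9, 42.1, 46.7 and 35.9 CPM and anti-CTLA4 mice 36.2, 56.3, 45.2 and 52.3 CPM. Both groups spanned much of the range of untreated mice at 5wk.

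The ratio of Nt5e to Entpd1 per kb of exon therefore followed Nt5e. Its median was 0.455 in untreated mice at 5wk (range 0.230 to 0.572) and 0.0735 in cured mice (range 0.0614 to 0.0771). It was 0.158 in untreated and 0.156 in dual ICI mice at 3wk, 0.302 in anti-CTLA4 mice and 0.392 in uncured mice. In anti-PD1 mice the median was 0.531 and the lowest value, of mouse 5, was 0.0532. In all 29 libraries Entpd1 thus had the higher level per length, since no group's highest ratio passed 0.599, and the ratios were not tested.

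Adora2a, the main adenosine receptor of lymphocytes, separated the groups at 3wk. It was at 6.79, 6.56, 6.42, 6.36 and 5.79 CPM in dual ICI mice and at 4.55, 5.30, 4.11, 4.47 and 3.90 CPM in untreated mice. Every dual ICI mouse lay above every untreated mouse. The log2 fold change was 0.52 ± 0.14 (SE), with an unadjusted p of 0.00294 and an adjusted p of 0.149 in edgeR, which missed the threshold, and of 0.00614 in DESeq2.

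At 5wk the groups of Adora2a overlapped. Untreated mice had 6.07, 5.73, 5.36, 7.92 and 4.61 CPM, anti-PD1 mice 5.79, 5.44, 6.43, 6.49 and 4.44 CPM, and anti-CTLA4 mice 6.14, 7.37, 5.40 and 4.13 CPM. Uncured mice had 6.16 and 10.6 CPM and cured mice 5.07, 6.33 and 5.28 CPM. On plain library totals these 2 groups did not overlap, with 7.39 and 12.9 CPM in uncured and 3.54 to 4.62 CPM in cured mice. Without the muscle genes they were also apart, at 7.83 and 13.4 CPM against 4.28 to 5.49 CPM. The highest value of all libraries, 10.6 CPM, was that of uncured mouse 5, which also had the highest Ido1 level of the mice at 5wk. Cured and untreated mice differed by -0.07 ± 0.22 (SE; adjusted p = 0.809 in edgeR) on the log2 scale. Uncured and cured mice differed by 0.56 ± 0.26 (SE; adjusted p = 0.0836 in edgeR), and leaving out uncured mouse 1 gave 0.90 with an adjusted p of 0.0123, while leaving out mouse 5 gave 0.11 with an adjusted p of 0.737.

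Adora2b, the receptor for higher adenosine, was not called in any comparison. It was at 4.85, 5.82, 3.41, 3.98 and 5.35 CPM in dual ICI mice and at 3.36, 6.66, 3.35, 4.47 and 3.45 CPM in untreated mice at 3wk, with a log2 fold change of 0.14 ± 0.24 (SE; adjusted p = 0.922 in edgeR). At 5wk it was at 3.63, 3.58, 5.22, 3.66 and 4.84 CPM in untreated, 2.46, 3.75 and 3.58 CPM in cured, and 3.63 and 5.02 CPM in uncured mice. Its group means lay between 3.26 and 4.68 CPM, and each group overlapped with its neighbours in the order of means. On plain library totals, however, cured mice (1.71 to 2.74 CPM) lay below untreated mice at 5wk (2.83 to 6.17 CPM) and uncured mice (4.35 and 6.14 CPM). Without the muscle genes cured mice also lay below both, at 2.08 to 3.25 CPM against at least 3.32 CPM in untreated and 4.61 CPM in uncured mice. Cured mice had the lowest mean, at -0.34 ± 0.25 (SE; adjusted p = 0.288 in edgeR) on the log2 scale against untreated mice.

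The first comparison asked what dual ICI did at an early time, before tumors were cleared. Of the 7 genes, 6 were tested at 3wk in edgeR and none passed the adjusted threshold, while 2, Ido1 and Adora2a, passed in DESeq2. Over all genes, edgeR called 89 of 15503 (0.574%). At an unadjusted p under 0.05, the 2 genes Ido1 and Adora2a were higher in dual ICI mice and none was lower, beside 10.7% of all genes tested. The median log2 fold change was 0.34 over the 6 genes and 0.02 over all genes.

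Beside these differences, the T cell genes were higher in dual ICI mice at 3wk. The summed level of 9 T cell genes was 61.4 ± 16.6 CPM (SD, n = 5), against 23.0 ± 5.9 CPM (SD, n = 5) in untreated mice, with Cd8a the most abundant in every dual ICI mouse, and 3 of 9 were called higher. The 12 interferon gamma response genes summed to 1183.2 ± 407.9 and 656 ± 132 CPM (SD, n = 5 each), and all 12 had a positive log2 fold change, 10 at an unadjusted p under 0.05 and none after adjustment. The 10 macrophage genes summed to 1593.4 ± 402.2 and 1121 ± 76 CPM (SD, n = 5 each). The 8 adipocyte genes summed to 628.8 ± 262.4 and 996.8 ± 264.3 CPM (SD, n = 5 each), with none called after adjustment and 4 lower at an unadjusted p under 0.05. The part of these cells in the Ido1 and Adora2a differences was not tested.

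The gastric epithelium sum at 3wk was 1304.1 ± 637.1 CPM in dual ICI and 1166.4 ± 448.1 CPM in untreated mice (SD, n = 5 each), so the 2 groups differed in it by less than either SD. The dual ICI mouse with the highest Ido1 and Nos2 levels, mouse 4, also had the highest epithelium sum of its group, 2223.6 CPM, and the highest T cell sum, 88.9 CPM. Without it the log2 fold change of Ido1 was 2.05 and that of Nos2 was 0.53.

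**Figure D2:**
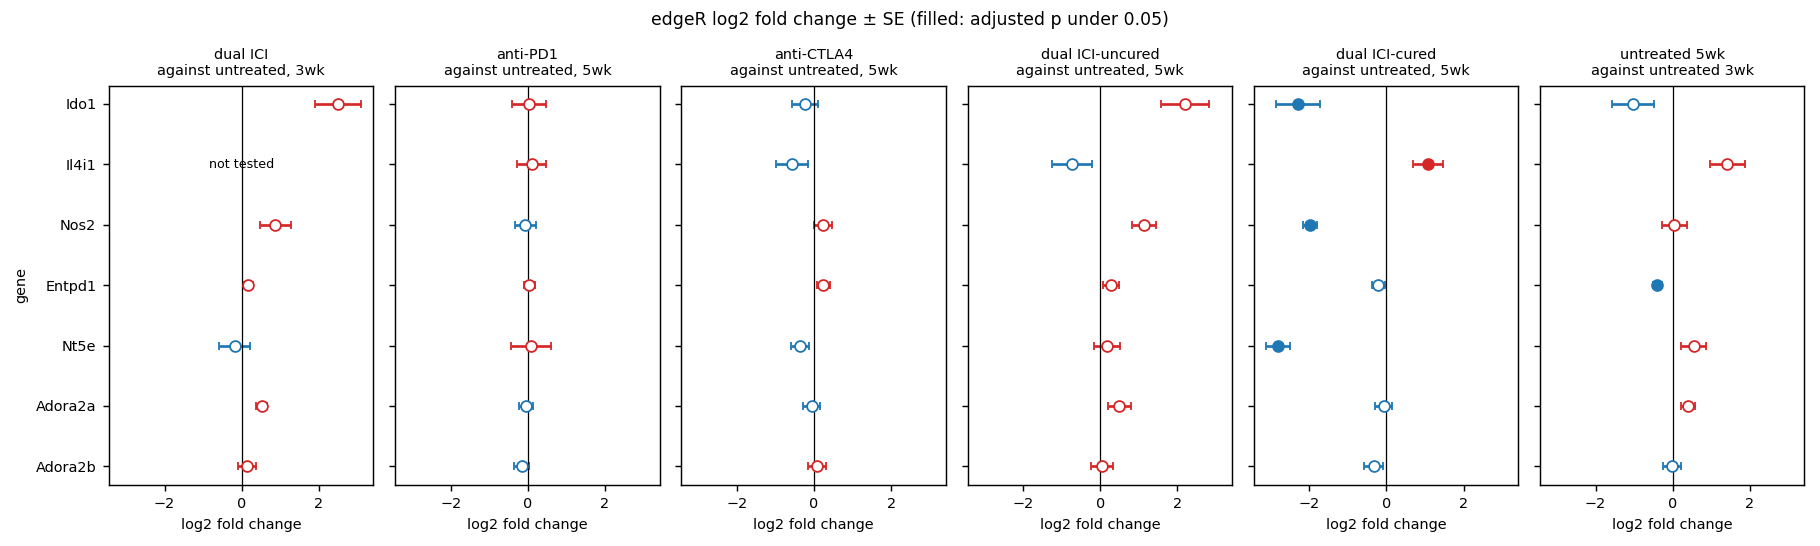
Log2 fold change ± SE of the 7 genes in 6 comparisons. Filled points are those with an adjusted p under 0.05 in edgeR, red points are above 0 and blue points below. Of these comparisons, those with filled points are cured against untreated mice, with 4, and untreated mice at 5wk against 3wk, with 1.

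The monotherapies were compared with untreated mice at 5wk. None of the 7 genes passed the adjusted threshold in edgeR or DESeq2 in anti-PD1 mice, and none had an unadjusted p under 0.05. Over all genes, edgeR called 0% after adjustment and 1.31% at an unadjusted p under 0.05. The largest log2 fold change of the 7 was that of Adora2b, at -0.16 ± 0.20 (SE; adjusted p = 1.00 in edgeR). Without anti-PD1 mouse 5 the largest was that of Nt5e, at 0.36 ± 0.23 (SE), and again no gene passed.

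In anti-CTLA4 mice none of the 7 genes passed the adjusted threshold in edgeR or DESeq2 and none had an unadjusted p under 0.05. Over all genes, edgeR called 0% after adjustment and 0.811% at an unadjusted p under 0.05. Nt5e, at -0.37 ± 0.24 (SE) on the log2 scale, lay below the untreated mean in all 4 anti-CTLA4 mice, although within the range of untreated mice. Il4i1 had the largest absolute log2 fold change of the 7, -0.56 ± 0.42 (SE), with 1 of 4 mice above the untreated mean. Nos2 was high in mouse 1 alone, at 50.7 CPM.

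The comparison of the uncured mice with untreated mice asked how tumors that persisted under dual ICI differed. None of the 7 genes passed the adjusted threshold in edgeR or DESeq2, and over all genes edgeR called 0%. At an unadjusted p under 0.05, Ido1 and Nos2 were higher and none of the 7 was lower, beside 4.87% of all genes. Both rested on mouse 5. The T cell genes summed to 52.2 and 55.3 CPM in uncured mice 1 and 5, against 24.1 ± 5.6 CPM (SD, n = 5) in untreated mice, and the interferon gamma response genes to 723 and 893.8 CPM, against 592 ± 92 CPM. Mouse 5 was the higher in both. The macrophage genes summed to 1366.4 ± 136.1 CPM (SD, n = 2) in uncured and 1013.7 ± 306.9 CPM in untreated mice, the neutrophil genes to 163 ± 29 and 118.1 ± 40.5 CPM, and the skeletal muscle genes to 39624 ± 10392 and 84820 ± 65044 CPM, with no gene of these lists called. The gastric epithelium genes summed to 2681.6 and 3087.3 CPM in the 2 uncured mice, both above all untreated mice (at most 2657.2 CPM). None of the 11 epithelium genes tested was called. The part of these cells in the Ido1 and Nos2 levels was not tested.

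The change with dual ICI was also compared between times. In the interaction of dual ICI with time, with the uncured mice at 5wk, none of the 7 genes passed the adjusted threshold in edgeR or DESeq2, and none had an unadjusted p under 0.05, beside 0% and 6.35% of all genes in edgeR. For Ido1 the difference between the 2 log2 fold changes was -0.31 ± 0.98 (SE), and it was -2.33 without uncured mouse 5, 0.50 without uncured mouse 1 and 0.13 without dual ICI 3wk mouse 4.

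Cured mice differed most from untreated mice. Of the 7 genes 4 passed the adjusted threshold in edgeR: Nt5e, Ido1 and Nos2 fell and Il4i1 rose, and the same 4 passed in DESeq2. Over all genes tested, edgeR called 44.7% after adjustment and 53.7% at an unadjusted p under 0.05, a background against which 4 of 7 does not set these genes apart. The median log2 fold change was -0.34 over the 7 genes and -0.05 over all genes. Entpd1 and both receptors, the remaining 3, were not called.

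The markers of tumor, muscle and blood cells moved in the same comparison. All 9 gastric epithelium genes tested were called lower, with a median log2 fold change of -6.58, and the 12 genes summed to 24.2 ± 19.0 CPM (SD, n = 3) in cured and 2058.6 ± 718.6 CPM (SD, n = 5) in untreated mice. The 12 skeletal muscle genes summed to 227920 ± 19650 and 84820 ± 65044 CPM, and 4 of the 12 were called higher. The 9 neutrophil genes summed to 39.5 ± 5.5 and 118.1 ± 40.5 CPM, with 6 of 7 tested called lower, and S100a8 at 0.388 ± 0.387 and 15.0 ± 5.7 CPM. The 9 T cell genes summed to 13.2 ± 2.2 and 24.1 ± 5.6 CPM, with 6 of 9 called lower, and the 12 interferon gamma response genes to 371.3 ± 22.4 and 592 ± 92 CPM, with 8 of 11 tested called lower. The 10 macrophage genes summed to 784 ± 52 and 1013.7 ± 306.9 CPM, and none of the 10 was called. Of these, 9 had a negative log2 fold change, with a median of -0.28 beside -0.05 over all genes. Of 6 mesothelium genes 4 were called lower, Krt19 among them, which gastric epithelium also expresses. The 8 fibroblast genes summed to 6125.9 ± 222.3 and 7742.9 ± 1774.3 CPM. Of these 2 were called higher and none lower, while 5 had a negative log2 fold change. Tissue content and treatment cannot be told apart here, and the part of each cell type in the fall of Nt5e, Ido1 and Nos2 was not tested.

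The plot of levels against the gastric epithelium sum sets each gene beside it in every library. The sum was at most 45.5 CPM in the cured mice, 32.9 CPM in anti-PD1 mouse 5 and at least 614.1 CPM in all other mice. Anti-PD1 mouse 5, which differed from the cured mice in treatment, had Nt5e (2.94 CPM) below all cured mice. Its Ido1 (4.23 CPM) lay above all cured mice. It also lay above the untreated mice at 5wk, but on plain library totals (2.93 CPM) and without the muscle genes (3.47 CPM) it lay within their range. Its Nos2 (12.9 CPM) lay between those of the cured and the untreated mice. Its Il4i1 (0.516 CPM) lay below all cured mice and within the range of the untreated mice, but on plain library totals (0.357 against at least 0.416 CPM) and without the muscle genes (0.423 against at least 0.442 CPM) it lay below that range. Untreated 5wk mouse 2 had the lowest epithelium sum of its group, 816.5 CPM, with the lowest levels of Nt5e and Ido1 and the highest of Il4i1 in that group. Its Nos2 (24.4 CPM) lay above that of mouse 4 (21.8 CPM), but on plain library totals (19.3 against 20.5 CPM) and without the muscle genes (22.7 against 22.9 CPM) it was the lowest. The part of tumor content in these levels was not tested.

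**Figure D3:**
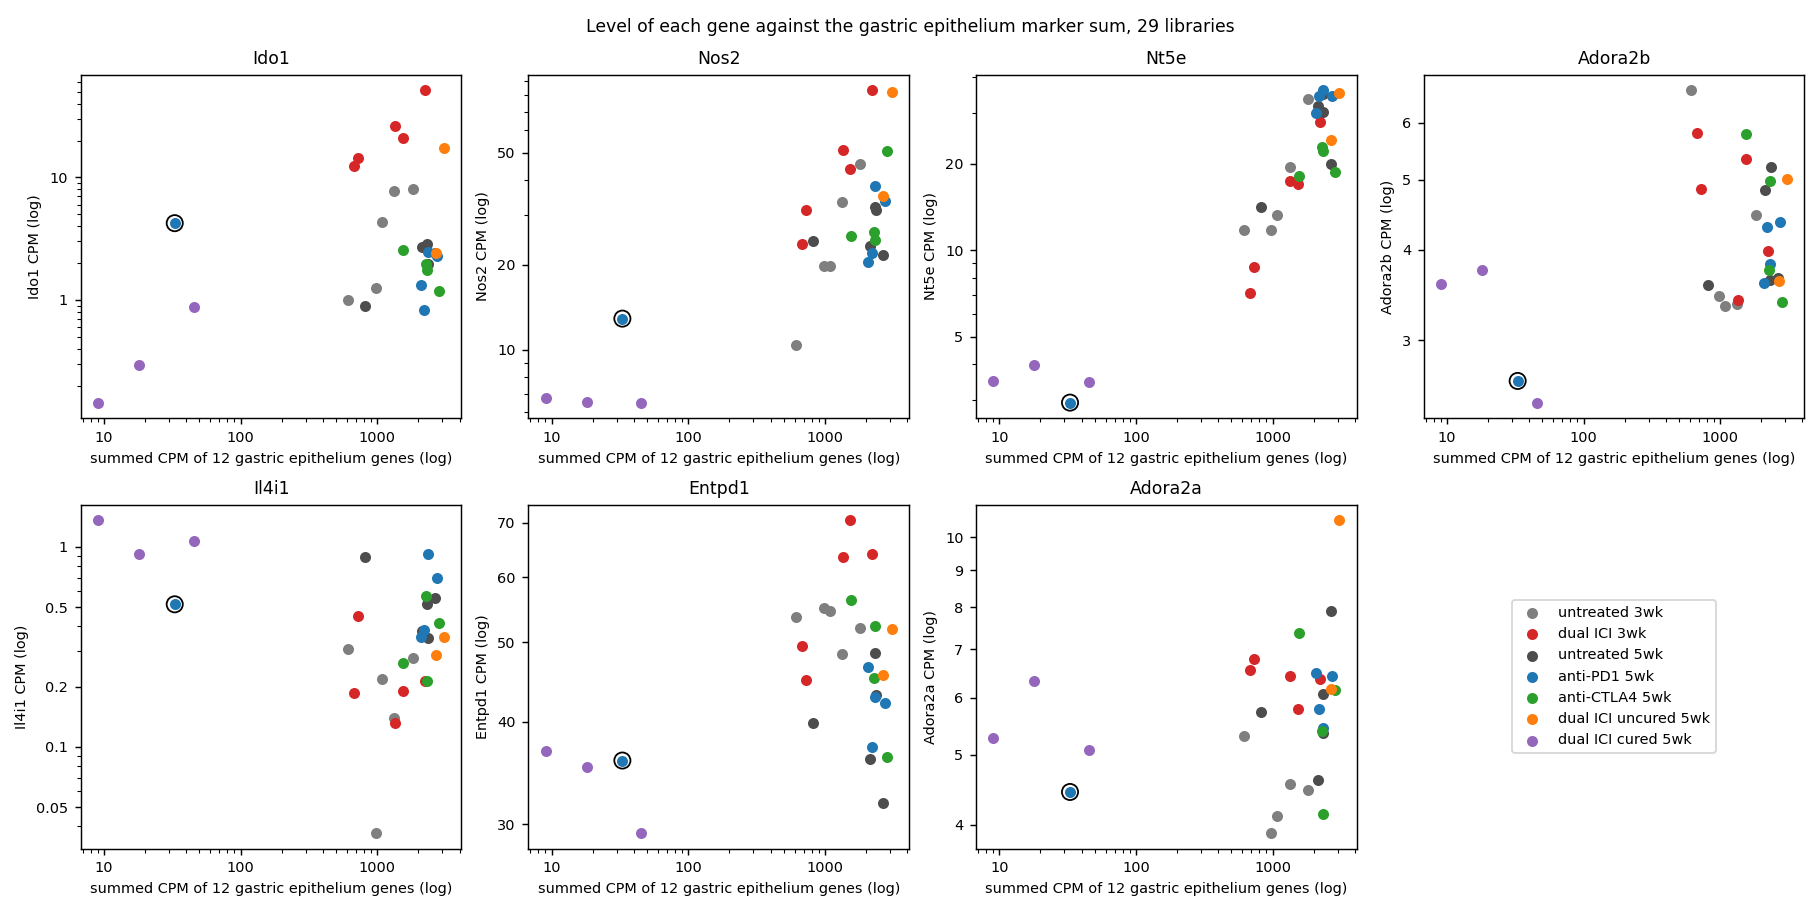
CPM of each gene against the summed CPM of 12 gastric epithelium genes in the same library (both axes log). Each point is 1 of 29 mice, coloured by group, and the ringed point is anti-PD1 mouse 5. The 3 cured mice and the ringed mouse lie at or under 45.5 CPM on the horizontal axis and all other mice at or over 614.1 CPM.

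Uncured and cured mice received the same antibodies and differed in outcome. Of the 7 genes 5 were called in edgeR, with Ido1, Nos2, Nt5e and Entpd1 higher and Il4i1 lower in uncured mice, and the same 5 in DESeq2. Over all genes, edgeR called 70% after adjustment and 72.4% at an unadjusted p under 0.05. The log2 fold changes were 4.50 ± 0.87 (SE) for Ido1, 3.13 ± 0.32 for Nos2 and 3.00 ± 0.20 for Nt5e, and -1.80 ± 0.42 for Il4i1. Without uncured mouse 5 that of Ido1 was 2.45, with an adjusted p of 0.0192, and that of Nos2 was 2.38. Ido1 was at 5.30 without uncured mouse 1 and at 5.44 without cured mouse 2. All 8 gastric epithelium genes tested were called higher in uncured mice, with a median log2 fold change of 7.15. Called higher were also 8 of 9 T cell, 9 of 11 interferon gamma response, 8 of 10 macrophage and 6 of 7 neutrophil genes tested, and all 12 skeletal muscle genes were called lower. Of 8 fibroblast genes 4 were called higher and 2 lower. Tissue content and outcome cannot be told apart.

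Taking the 5 dual ICI mice at 5wk as the labels group them, none of the 7 genes passed the adjusted threshold in edgeR or DESeq2 against untreated mice and none had an unadjusted p under 0.05, beside 0% and 6.87% of all genes in edgeR. Cured and uncured mice are pooled in this group, where Nos2 was 27.4 ± 33.0 CPM and Nt5e 14.1 ± 14.8 CPM (SD, n = 5). The log2 fold changes were -0.90 ± 0.68 (SE) for Nt5e and 0.96 ± 1.06 for Ido1, and without uncured mouse 5 they were -1.57 and -1.19.

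The course of the tumor without treatment was seen by setting untreated mice at 5wk against those at 3wk. Entpd1 was the 1 gene of the 7 called in edgeR, lower at 5wk, while DESeq2 called Entpd1 and Il4i1. Over all genes, edgeR called 10.8%. At an unadjusted p under 0.05, Il4i1 and Adora2a were higher and Entpd1 lower at 5wk, beside 30.1% of all genes. Ido1 was -1.04 ± 0.55 (SE; adjusted p = 0.225 in edgeR) on the log2 scale. All 9 gastric epithelium genes tested had a positive log2 fold change, 2 of them called, and the 12 genes summed to 2058.6 ± 718.6 CPM at 5wk and 1166.4 ± 448.1 CPM at 3wk (SD, n = 5 each). For fibroblast genes, 5 of 8 were called lower at 5wk. Of blood cell and interferon markers, 2 of 7 neutrophil genes tested were called higher, and 1 of 10 macrophage, 1 of 8 dendritic cell and 2 of 11 interferon gamma response genes lower. The part of these cells in the Entpd1 and Il4i1 differences was not tested.

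Other genes of the 3 pathways were followed as lists, which leave out the 7 genes. In the tryptophan list, 12 of the 17 genes found in the table were tested in cured against untreated mice, of which 6 were called lower and 1 higher, beside 44.7% of all genes called in either direction. Cyp1b1, a target of the aryl hydrocarbon receptor, was at 3.37 ± 0.41 CPM (SD, n = 3) in cured and 36.1 ± 13.4 CPM (SD, n = 5) in untreated mice and fell by 3.39 on the log2 scale. Kynu, which cleaves kynurenine, was at 0.0657 ± 0.0275 and 0.673 ± 0.257 CPM, and Slc7a5, a subunit of the transporter that exchanges large amino acids such as tryptophan, at 7.30 ± 0.82 and 29.1 ± 10.4 CPM. The median of the 12 was -0.46, beside -0.05 over all genes.

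In the arginine list, 14 of 15 genes were tested in that comparison, with 3 called lower and 2 higher, beside the same 44.7% of all genes, and a median of 0.16. Slc7a1, a transporter that brings arginine into cells, was at 12.7 ± 0.9 CPM in cured and 95.2 ± 47.8 CPM in untreated mice, and fell by 2.87 on the log2 scale. Nos1, the neuronal form of the synthase, which skeletal muscle also makes, rose by 1.71 ± 0.57 (SE), from 36.9 ± 34.2 to 120.3 ± 23.0 CPM, opposite to Nos2. The rise was 2.49 without untreated mouse 2. Its adjusted p of 0.0342 in edgeR was above 0.05, at 0.0572 to 0.0986, when any of 7 of the 8 mice was left out.

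In the adenosine list, all 16 genes were tested, with 5 called lower and 5 higher in cured mice, again beside 44.7% of all genes, and a median of -0.15. Entpd8, an ATP-cleaving enzyme of epithelia, fell from 18.5 ± 8.8 CPM to 0.119 ± 0.165 CPM, a log2 fold change of -7.24 that was -9.30 without cured mouse 2. Entpd3, a close relative, held 3 counts in the cured and 519 in the untreated libraries, a ratio of 68.7 (95% exact interval 23.4 to 334, for counting error alone). Alpl, the tissue-nonspecific alkaline phosphatase, which can also make adenosine from AMP, rose by 1.92 ± 0.28 (SE), to 18.3 ± 0.3 from 4.89 ± 1.75 CPM. Nt5e and Alpl, both of which act on AMP, thus moved in opposite directions in cured mice.

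At 3wk none of the 12 tryptophan, 14 arginine and 16 adenosine genes tested passed the adjusted threshold with dual ICI in edgeR, with 2, 2 and 1 higher and 0, 0 and 1 lower at an unadjusted p under 0.05, beside 10.7% of all genes. In the monotherapies and in uncured mice none passed either. Between uncured and cured mice, where edgeR called 70% of all genes, 29 genes of the 3 lists were called, of 12, 14 and 16 tested. Of these, 7 tryptophan genes were called higher and 1 lower, with Kynu, Cyp1b1 and Slc7a5 changing most, at 4.05, 3.47 and 2.37 on the log2 scale. Of the arginine genes 4 were called higher, with Slc7a1 at 3.45, and 5 lower, with Nos1 at -3.17. Of the adenosine genes 6 were called in each direction, among them Entpd8 at 30.1 ± 0.5 CPM in uncured and 0.119 ± 0.165 CPM in cured mice, Ada, which destroys adenosine, at 2.11 on the log2 scale, and Entpd3 at 275 against 3 counts. The log2 fold change of Entpd8 was 7.34 to 9.98 with 1 mouse left out.

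From 3wk to 5wk without treatment, Kmo, which follows on kynurenine, fell by 0.90 on the log2 scale (SE 0.24), and Slc3a2, the partner chain of Slc7a5, rose by 0.46 ± 0.11 (SE). Asl, which remakes arginine, rose by 0.68 ± 0.18 (SE). Dpp4, which binds adenosine deaminase in humans, fell by 1.599 (SE 0.411), or by 0.91 without untreated 3wk mouse 2, and Alpl by 0.99 (SE 0.28). The adjusted p of these 5 genes in edgeR was between 0.0282 and 0.0432, and each lost its call without some single mice, with adjusted p up to 0.0798 for Kmo, 0.0762 for Slc3a2, 0.0969 for Asl, 0.0791 for Dpp4 and 0.105 for Alpl.

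**Figure D4:**
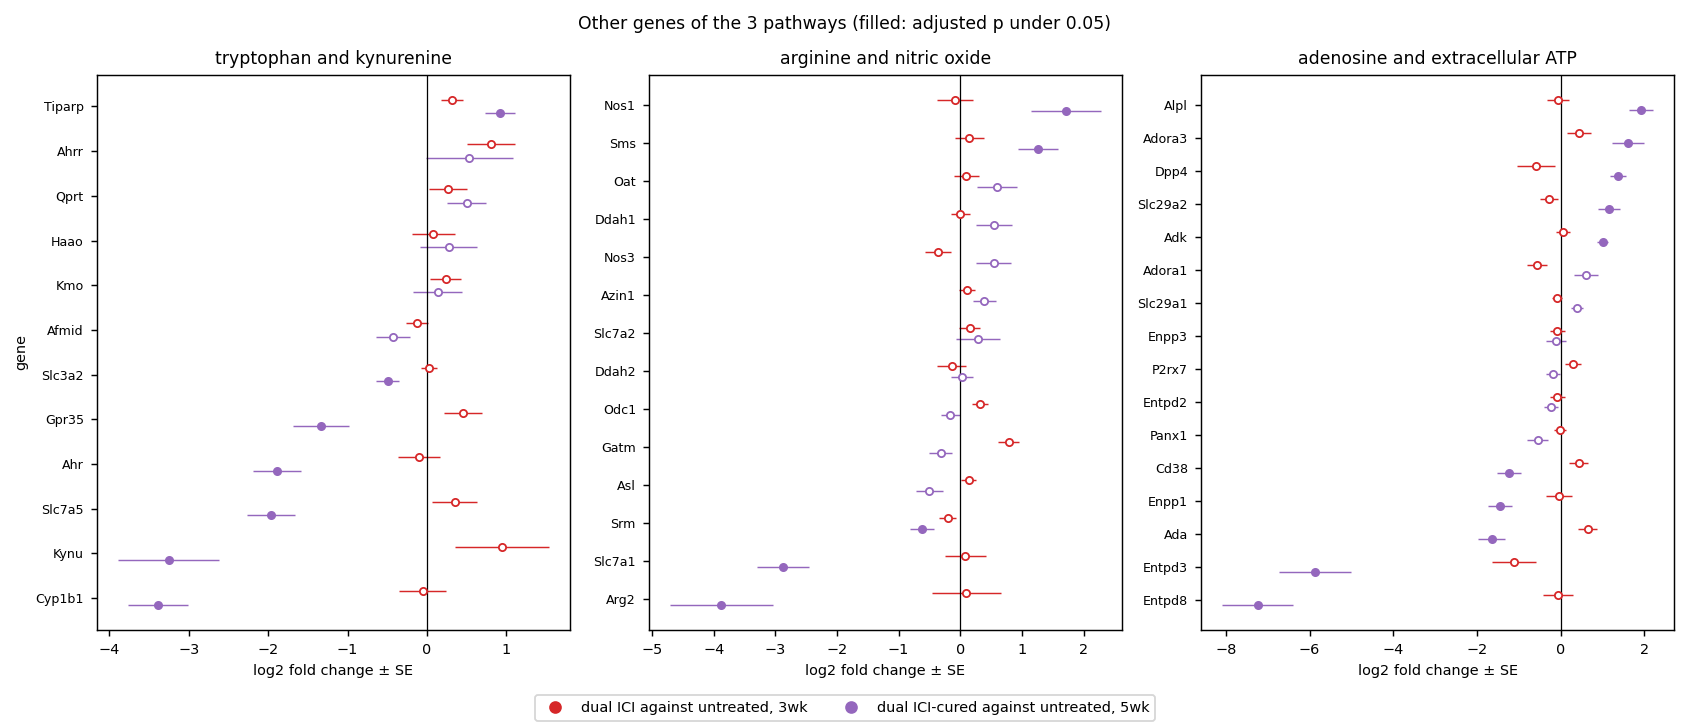
Log2 fold change ± SE of the other genes of the 3 pathways, in dual ICI against untreated mice at 3wk (red) and in cured against untreated mice at 5wk (purple). Filled points have an adjusted p under 0.05 in edgeR. No red point is filled, and 22 purple points are, of which 14 lie below 0.

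As a description, each gene was compared with the 16700 genes that passed the count filter by Pearson's r of log2 CPM over the 29 libraries, with the r of deviations from group means beside it. The libraries share tissue content and depth, so r says nothing of shared control. Ido1 was most like Cxcl9 (r = 0.935, within groups 0.888), Gbp2 (0.934, 0.774) and AW112010 (0.920, 0.745), of which Cxcl9 and Gbp2 are known targets of interferon gamma. Nos2 was most like Mlkl (0.927, 0.773) and Mthfd2 (0.920, 0.790). Nt5e was most like Trpm6 (0.973, 0.9625), Mtmr11 (0.971, 0.955) and Fam149a (0.968, 0.943).

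Entpd1 was most like Dab2 (r = 0.909, within groups 0.841), Cysltr1 (0.898, 0.770) and Rab8b (0.886, 0.733). The receptors had looser partners. Adora2a was most like Sept1 (0.721, 0.418), Sh2d1a (0.683, 0.479) and Batf (0.674, 0.553), of which Sh2d1a and Batf are known from T cells. Adora2b was most like Cmtm3 (0.741, 0.747), Swap70 (0.659, 0.617) and Pros1 (0.640, 0.588). Il4i1 was most like Gstt2 (0.797, 0.436), Mtmr14 (0.797, 0.579) and Dennd6b (0.793, 0.501). Among the 7 genes themselves, Ido1 and Nos2 were the most alike pair (r = 0.745, within groups 0.535), followed by Nos2 and Nt5e (0.743, 0.702). Entpd1 and Il4i1 ran most opposite, at -0.725, but at -0.270 within groups. Ido1 and Nt5e, which both fell in cured mice, had an r of 0.299 over all libraries.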

How the data were processed

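The authors deposited 1 table of raw, not normalized read counts for 24421 gene symbols in 29 libraries. Per the submitters' processing notes the authors used STAR 2.7.0f and featureCounts 1.6.4 with mm10 (GRCm38), while the study's methods name STAR and HTSeq. RNA extraction is also described differently in the labels (TRIzol and RNeasy) and the methods (ISOGEN). Libraries were made with the NEBNext Ultra II kit per the labels. The annotation and the strand setting are not given in the sources used here, so overlapping genes are uncertain. All rows carry a gene name.

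Counts were analysed with edgeR 4.0.16 in R 4.3.3 (TMM, filterByExpr, then a two-sided glmQLFTest after glmQLFit, with p-values adjusted by Benjamini-Hochberg and called under 0.05), with the groups compared alone in each of 9 fits. The SE is the absolute log2 fold change divided by the square root of F. DESeq2 1.42.0, its size factors in edgeR, no low-count filter, leaving out the skeletal muscle list, 1 fit to the 29 libraries together, a block for the replicate number and leaving out each mouse in turn were alternatives. CPM was also taken over plain totals and over totals without muscle genes. Log2 CPM for the patterns had a prior count of 2 (alternative 0.5). Some of the fits were tried on simulated counts with the same dispersion for every gene. Such counts hold no differences in tissue content, so they cannot show how well the calls hold here. Tables were made with pandas 2.3.3 and plots with matplotlib 3.10.9.

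Library totals lay between 25989217 and 31219650. No pair of libraries had counts that agree within sampling noise (smallest chi-square per gene 12.7), and each library is 1 mouse, so the SD holds counting, handling and biological differences together. Intervals of counts cover counting error alone.

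Named genes were the 7 genes, at most 3 called genes per pathway list and comparison with the largest absolute log2 fold change, and the 3 genes most like each of the 7. Krt8, Krt19, Cd8a, S100a8, Retnla and Fscn1 were named as markers after their values were seen, and Tbc1d17 for its overlap with Il4i1. The 7 genes, the lists and the rule were chosen with earlier results of these data known. The lists of dendritic cell, B cell, endothelial, adipocyte, type 2 cytokine and hypoxia genes are given in the closing section. One further member of the set, 1 gene with a pattern like that of Nos2 and 1 gene of the pathway lists are not reported here.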

Additional observations from a re-analysis of the deposited data

Results flagged for a closer look

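Of 35 groups of 4 or 5 libraries examined for a mouse far from the others, 3 were picked out, and chance alone picks out about 1 in 20 groups. Nt5e in anti-PD1 mouse 5 was 2.94 CPM, while the other 4 anti-PD1 mice had 30.1 to 36.1 CPM. Nos2 in anti-CTLA4 mouse 1 was 50.7 CPM, while the other 3 had 24.6 to 26.1 CPM. Il4i1 in dual ICI 3wk mouse 1 was 0.453 CPM (11 counts), while the other 4 had 0.132 to 0.214 CPM.

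For Ido1 every dual ICI mouse at 3wk lay on one side of the untreated mean of its time and every cured mouse at 5wk on the other. The mean CPM of dual ICI over untreated mice was 5.64 at 3wk, and that of cured over untreated mice was 0.201 at 5wk. This difference between the times was not tested, and cured mice were chosen by outcome.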

How the results depend on the processing

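Against untreated mice at 3wk, the 0 of the 7 genes and 89 of all genes called became 2 and 502 with DESeq2, 1 of the 7 with all 29 libraries in 1 fit (Ido1, adjusted p 0.0431), and 6 to 119 of all genes with a mouse left out, while the 7 stayed at 0. In cured against untreated mice the 4 and 7067 became 2 to 4 and 4491 to 9388 with a mouse left out, and in untreated mice at 5wk against 3wk the 1 and 1687 became 2 and 3168 with DESeq2, 0 of the 7 with the size factors of DESeq2 or without the low-count filter, 2 of the 7 with all 29 libraries (Entpd1 and Il4i1), and 0 to 1 and 654 to 4915 with a mouse left out. DESeq2 called 17 genes in uncured, 46 in all dual ICI mice and 1 in the interaction, where edgeR called 0. The cause of these shifts was not tested. In uncured against cured mice the counts stayed within 4 to 6 of the 7 and 9576 to 11272 of all genes.

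Signs turned for Nt5e at 3wk (-0.52 to 0.16 with a mouse left out), for Adora2a in cured mice (-0.18 to 0.10), for Ido1 in all dual ICI mice (-1.19 to 1.27) and for Ido1 in the interaction (-2.33 to 0.50), none of them called. Of 440 alternative values of the 7 genes 401 kept direction and call, and of 295 of other pathway genes 253 did. Of 98 group means under other totals, 78 moved by less than 1 SD; the rest are mostly cured or uncured mice, such as Nos2 in cured mice at 4.73 CPM on plain totals. With a prior count of 0.5, r moved little, such as from 0.935 to 0.938 for Cxcl9.

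The labels number the mice in each group, but same-numbered mice deviated together in no regular way (r of their deviations -0.647 to 0.697), so they were not treated as pairs. For most dual ICI mice at 3wk the number in the title also differs from that in the sample description. The replicate block therefore has no known basis in the design. With the replicate block, 209 genes and 1 of the 7 (Ido1, adjusted p 0.00899) were called at 3wk, 4016 genes and 2 of the 7 in cured mice, where Ido1 (0.061) and Il4i1 (0.229) lost their calls, and Ido1 in all dual ICI mice was -0.73; in the change from 3wk to 5wk Entpd1 (0.0739), Slc3a2 (0.0531) and Alpl (0.0612) lost theirs, which left 0 of the 7. Il4i1 in cured mice also lost its call without the low-count filter (0.0626), and Alpl in the change from 3wk to 5wk with all 29 libraries (0.0993), where Adora2a in uncured against cured mice was called (0.0438). Counts of at most 30 limit Il4i1 in every library, and Ido1 in cured mice and in 3 other libraries.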

Other observations

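Several further lists that stand for cells or signals known to bear on these genes were measured. Of these, the adipocyte and dendritic cell lists are given in part above. The 10 type 2 cytokine response genes, a signal known for alternative activation of macrophages, summed to 1136.4 ± 316.5 CPM (SD, n = 5) in dual ICI and 821.9 ± 310.2 CPM (SD, n = 5) in untreated mice at 3wk. At 5wk the sum was 725.1 ± 40.3 CPM (SD, n = 3) in cured mice, 572.6 ± 48.7 CPM (SD, n = 2) in uncured mice, and 447 ± 94 CPM (SD, n = 5) without treatment. A single gene, Retnla, made up 424, 417 and 318 CPM of the sums in cured mice 2, 3 and 4. Il13, a cytokine of this list, held 3 counts or fewer in every cured and every untreated library. Between cured and untreated mice 1 of 8 type 2 genes tested was called higher and 2 lower. Of all genes, 44.7% were called in either direction, a share that also stands beside the other counts given here for cured mice. The 8 genes had a median log2 fold change of -0.25, with 3 higher and 5 lower in cured mice. Between uncured and cured mice 5 of 9 tested were called higher in uncured mice and 1 lower, beside 70% of all genes, with a median of 0.81.

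The 9 hypoxia response genes found in the table, a signal known to raise Nt5e and Adora2b, summed to 6796.5 ± 156.0 CPM (SD, n = 3) in cured and 2863.2 ± 1312.3 CPM (SD, n = 5) in untreated mice at 5wk, with 3 called higher and 1 lower, while Nt5e was lower. Ldha and Pgk1 of this list are also abundant in muscle. Ifng itself was at 1.21 ± 0.56 CPM (SD, n = 5) in dual ICI and 0.263 ± 0.144 CPM (SD, n = 5) in untreated mice at 3wk, and at 0.322 ± 0.046 CPM (SD, n = 2) in uncured mice at 5wk, when untreated mice had 0.117 ± 0.123 CPM.

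The 8 dendritic cell genes summed to 93.1 ± 10.6 CPM in dual ICI and 87.5 ± 6.1 CPM in untreated mice at 3wk. There 3 were higher and 1 lower at an unadjusted p under 0.05 in edgeR, beside 10.7% of all genes. None was called, and the median log2 fold change was 0.36. At 5wk the sums were 60.4 ± 3.6 CPM in cured and 79.8 ± 10.2 CPM in untreated mice, with 3 of 8 called lower in cured mice. Fscn1, at 33.6 to 66.1 CPM, was the most abundant of the 8 in every library. The 6 B cell genes had summed levels of 9.80 ± 0.94 CPM in the uncured group and 6.07 ± 3.21 CPM in the untreated group at 5wk, and none of the 5 tested was called. The 7 endothelial genes summed to 631.5 ± 22.3 CPM in cured and 494.9 ± 86.5 CPM in untreated mice at 5wk, with 1 called higher, and the 8 adipocyte genes to 1333 ± 340 and 1059.8 ± 722.1 CPM, with 1 called in each direction.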
